A study of Mus musculus with 3 samples.

Results

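Keratins are the intermediate filament proteins of epithelial cells, and the genes considered here are the 54 of the series whose mouse symbol is Krt followed by a number and at most 1 letter. They are 54 of 49377 genes. Keratin-associated protein genes and Krtdap do not belong to them. The 27 keratin genes of chromosome 11 encode type I (acidic) chains. The 27 of chromosome 15 encode type II (basic) chains, except Krt18, a type I keratin that lies at the end of the type II cluster, so 28 genes were of type I and 26 of type II.

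A keratin filament is built from pairs of 1 type I and 1 type II chain, and epithelial cells change the pair they make as they change their position or state. Basal keratinocytes are known for Krt5 with Krt14 or Krt15, differentiating epidermal cells for Krt1 with Krt10, and the companion layer and the inner layer of the bulge for Krt6a and Krt75. The inner root sheath and the hair shaft have keratins of their own, which are made while a hair grows.

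RNA was measured in 3 populations of sorted back-skin epidermal cells of C57BL/6 wild-type mice, 7 weeks old, in the second telogen, the resting phase of the hair cycle. S are CD34-positive cells with low integrin alpha 6 (suprabasal bulge stem cells), B are CD34-positive cells with high integrin alpha 6 (basal bulge stem cells), and N are all CD34-negative epidermal cells, a mixture of cell types. Follicle stem cells rest in the bulge. Each group is 1 library made from amplified RNA pooled over 4 mice, so the differences have no replicate check and no test could be made.

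Depth was 31.3 M fragments in S, 32.7 M in B and 35.3 M in N, as read from the steps between low values. Levels are FPKM (fragments per kilobase of transcript, relative to the depth of the library) after scaling of the 3 libraries to each other, and a keratin counts as measured when its mean over the libraries is at least 1. A gene is called higher or lower where the log2 ratio of level plus 1 is at least 1 in size, which is a rule of size and not a test. The gene of the sort antibody, Cd34, was at 215 in S, 144 in B and 0.201 in N. Itga6 was at 33.1 in S, 49.3 in B and 115 in N, highest in the population that was not sorted on it. Most markers of other skin cells missed the minimum mean of 1. Of 9 Langerhans and myeloid markers 5 were measured, among them H2-Aa at 4.51 in S, 4.81 in B and 13.5 in N. Only Cd68 of these was highest in S, at 6.03 in S, 2.11 in B and 1.69 in N, and the rest were highest in N. Of 9 sebocyte markers 4 were measured. Scd1, at 6.38 in S, 11.7 in B and 23.8 in N, and Fasn were highest in N, and Plin2 and Dgat2 in S. Of 8 melanocyte markers Mitf was measured, at 34.4 in S, 16.4 in B and 2.08 in N, and the other 7 were at most 0.513. Of 9 fibroblast markers 3 were measured, led by Col6a1 at 25.9 in S, 13.9 in B and 0.242 in N, while Col1a1, Col3a1, Dcn, Lum, Pdgfra and Dpt were at most 0.442. Of 7 T cell markers Trbc2 (4.01 in S, 19.8 in B and 33.0 in N) and Thy1 (0.673 in S, 4.99 in B and 18.3 in N) were measured. The part of such cells in the keratin levels was not tested.

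Of the 54 keratins, 16 were measured, 8 of each type. The highest keratin was Krt15 in all 3 libraries, and 12 keratins reached a level of 10 in at least 1 library. A further 5 peaked between 1 and 10, and the other 37 stayed below 1 everywhere. In S, 2 keratins (Krt15 and Krt5) held over 90% of the summed keratin FPKM, whereas 5 were needed in B and 5 in N. Across the libraries the summed keratin level was 4931 in S, 3628 in B and 3306 in N.

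**Figure D1:**
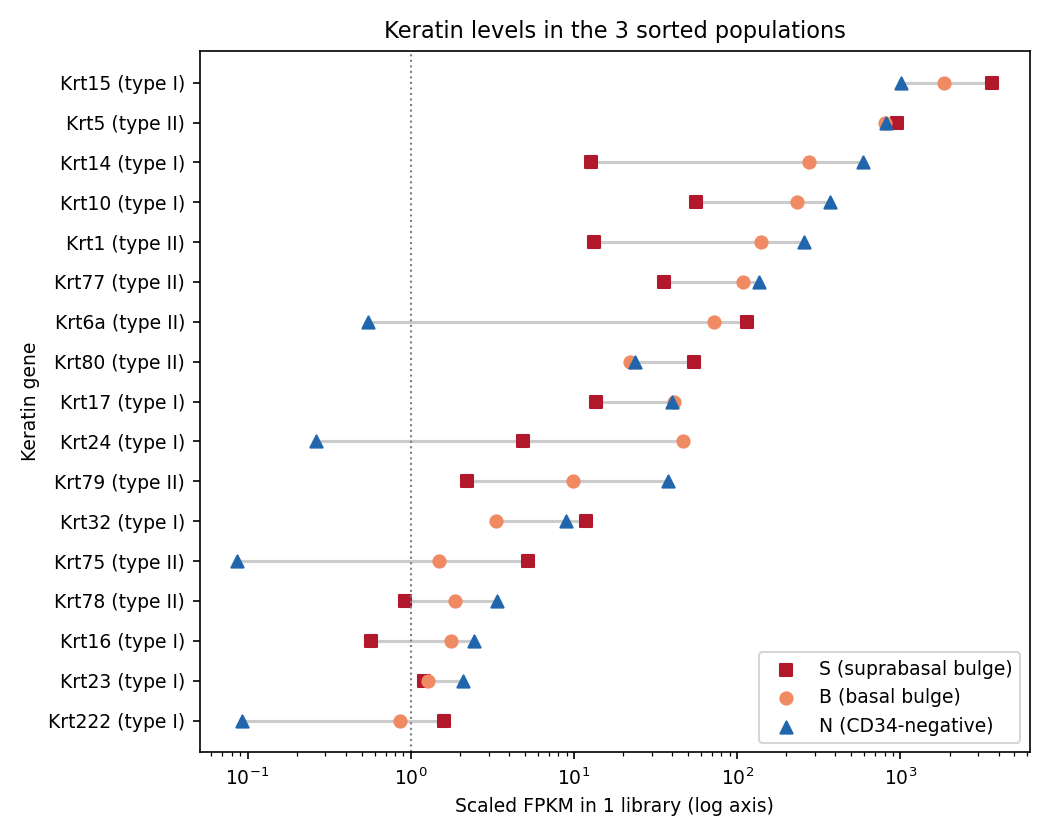
Level of each keratin that reached 1 in any library, on a log axis in scaled FPKM, with S as squares, B as circles and N as triangles, 1 library each, and grey lines joining the lowest and highest. Krt5 differs little between the libraries, Krt14 runs from 12.7 in S to 588 in N, and Krt6a from 0.549 in N to 115 in S.

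In S against N, Krt6a, Krt75, Krt24, Krt15 and Krt80 were higher, and Krt14, Krt1, Krt79, Krt10, Krt77, Krt17, Krt78 and Krt16 were lower. The 5 higher and 8 lower keratins are of 16 measured, against 9.58% higher and 10.9% lower (20.5% in either direction) among all 11598 measured genes. The median log2 ratio of the measured keratins was -0.81, and that of all measured genes 0.02. In B against N, 3 keratins were higher (Krt6a, Krt24 and Krt75) and 3 lower (Krt79, Krt32 and Krt14), against 7.27% higher and 7.11% lower (14.4% in either direction) among all measured genes. The median was -0.33, and -0.04 over all measured genes. The comparisons with N share the N library.

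Between the bulge layers, 3 keratins were higher in S than in B (Krt32, Krt75 and Krt80) and 7 lower (Krt14, Krt1, Krt24, Krt10, Krt79, Krt77 and Krt17), against 3.9% higher and 5.93% lower (9.83% in either direction) among all measured genes. The median was -0.69 for the keratins and 0.06 for all measured genes. The level in B lay between those in S and N for 11 of the 16 measured keratins, and for 48.0% of all measured genes. In 8 of the 16 the order was N over B over S, which held for 21.9% of all measured genes. With both libraries scaled to the same total over protein-coding genes, the keratins of B against N split into 4 higher and 2 lower, in place of 3 and 3.

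**Figure D2:**
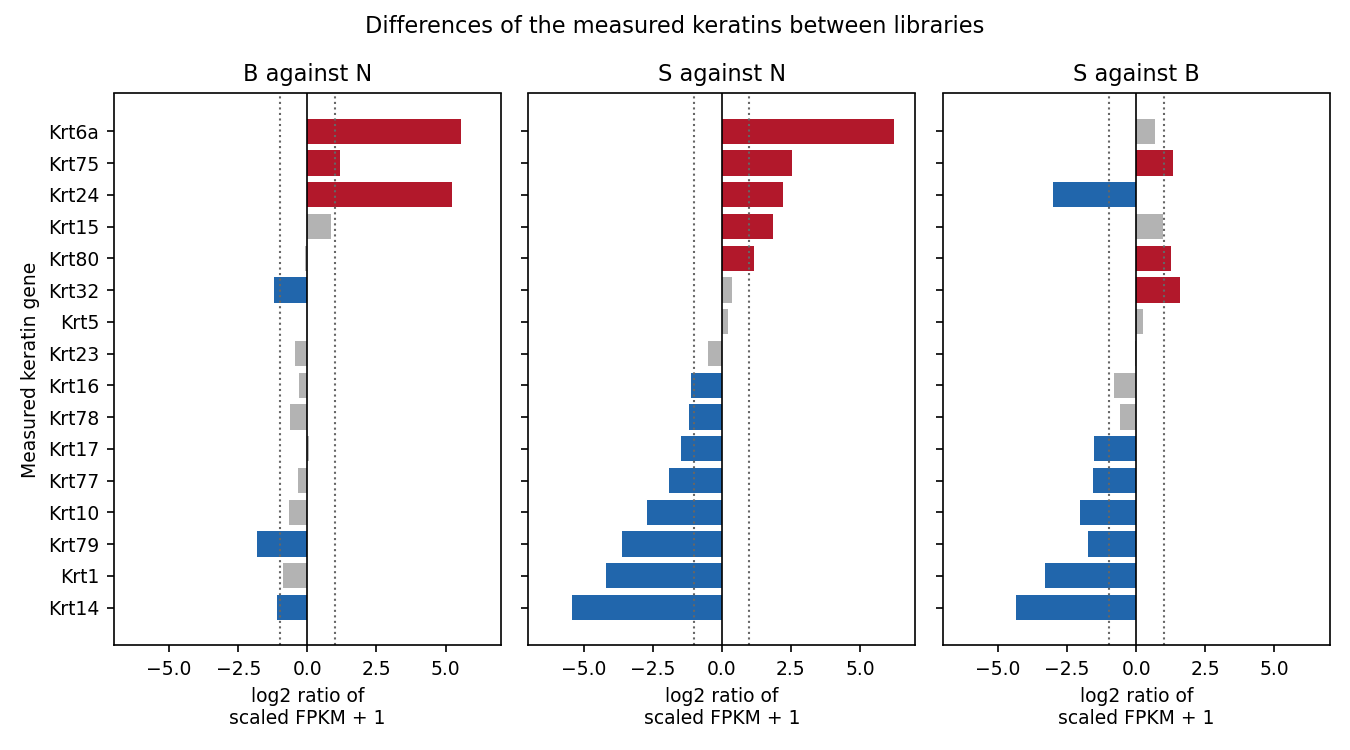
Log2 ratio of scaled FPKM plus 1 for the 16 measured keratins in the 3 comparisons, 1 library per population, with dotted lines at 1 and -1, red bars at or above 1, blue bars at or below -1 and grey bars between. The bars of S against N reach from -5.42 for Krt14 to 6.23 for Krt6a, and the 3 keratins that pass 1 in B also pass it in S. On the same total over all genes, single ratios were recomputed only for the 12 keratins that reach 10. Of their called bars, Krt15 and Krt80 in S against N and Krt32 and Krt80 in S against B turn to the other side of 0. Their uncalled bars that turn are Krt5 in all 3 comparisons, Krt32 in S against N, Krt80 in B against N, and Krt15 and Krt6a in S against B.

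Among the keratins of basal cells the type II chain differed little between the populations and the type I chains differed strongly. Krt5 (ENSMUSG00000061527, chromosome 15, 101707070 to 101712891, mm10), the type II keratin of basal cells, was at 960 in S, 810 in B and 818 in N, and none of its ratios reached the rule, although on the same total over all genes they were -1.66 in S against N and -1.83 in S against B. Krt14 (ENSMUSG00000045545, chromosome 11, 100203162 to 100207548), its usual type I partner, was at 12.7 in S, 277 in B and 588 in N. It was 46.2-fold lower in S than in N, 21.7-fold lower in S than in B, and 2.13-fold lower in B than in N. The call for B against N does not hold under every scaling, with a log2 ratio of -0.94 on the same total over protein-coding genes and -1.09 as reported.

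Krt15 (ENSMUSG00000054146, chromosome 11, 100131758 to 100135928), the classical type I keratin of bulge stem cells, ran the opposite way. It was at 3642 in S, 1855 in B and 1014 in N, which is 3.59-fold higher in S than in N. Among 21712 protein-coding genes outside the mitochondria it ranked 3 in S, 5 in B and 27 in N by level. The log2 ratios of 0.87 for B against N and 0.97 for S against B were just under the rule. For B against N the ratio was 1.02 on the same total over protein-coding genes and 1.06 on that over all genes, past the rule, and for S against B it was -1.10 on the total over all genes.

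Krt14 made up 0.348% of the fragments of Krt14 and Krt15 together in S (95% Wilson interval 0.322% to 0.376%), 13.0% in B (12.8% to 13.2%) and 36.7% in N (36.4% to 37.0%). These intervals rest on estimated fragments and cover counting error only. In S, Krt14 rested on about 624 fragments, so depth did not limit this value. The other 3 genes of the basal keratinocyte marker list besides Krt5 differed in their order. Itga6, the alpha 6 integrin gene used in the sort, had the order of Krt14, with log2 ratios of -1.77 in S against N and -1.21 in B against N. Itgb4, which encodes its beta 4 partner, was at 22.1 in S, 23.7 in B and 15.04 in N, and Col17a1, a hemidesmosome collagen, at 161 in S, 177 in B and 109 in N, with no ratio of either past the rule. Transcripts of Krt14 and Krt16 share 5.91% of the read-length windows (75 bases) of Krt14, and Krt15 shares none with any other annotated transcript.

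The balance of the 2 keratin types moved with Krt15. Summed type I over summed type II FPKM, a ratio within a library that needs no scaling, was 3.16 in S, 2.11 in B and 1.59 in N. Summed type II levels were close, at 1187 in S, 1167 in B and 1277 in N, while summed type I levels were 3745 in S, 2461 in B and 2029 in N. Krt15 held 97.3% of the type I FPKM in S, 75.4% in B and 49.97% in N. Krt14 plus Krt15 stood at 3.81 times the FPKM of Krt5 in S, 2.63 times in B and 1.9595 times in N. Keratins of both types together made up 2.40% of the FPKM of protein-coding genes in S, 1.83% in B and 1.504% in N, mitochondrial genes left out.

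**Figure D3:**
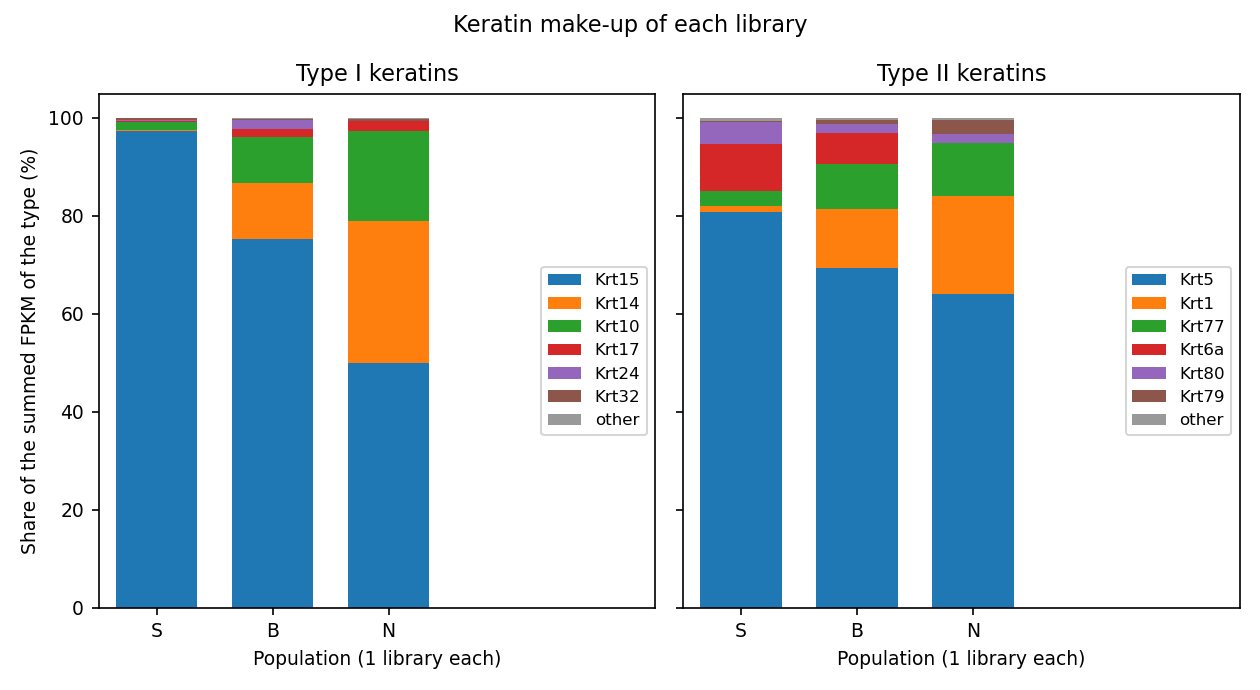
Share of the summed deposited FPKM of type I keratins (left) and type II keratins (right) held by single keratins in S, B and N, 1 library each, in percent. Krt15 takes 97.3% of type I in S, 75.4% in B and 49.97% in N, and Krt5 takes 80.9%, 69.4% and 64.0% of type II in S, B and N.

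Most measured keratins of the differentiating epidermal layers were lowest in S. Of 8 such keratins 5 were measured, and in S against N 4 were lower and Krt80 higher, whereas in B against N none of the 5 passed the rule. With the values as deposited, Krt1 did pass it in B against N, with a log2 ratio of -1.04 in place of -0.87. Krt1, the first type II keratin of cells that leave the basal layer, was at 13.3 in S, 140.1 in B and 258 in N. It was 19.3-fold lower in S than in N and 10.5-fold lower in S than in B. Krt10, its type I partner, was at 55.9 in S, 233 in B and 372 in N, which is 6.65-fold lower in S than in N. The pair was thus less even in S, with 4.19 times as much Krt10 as Krt1, against 1.66 times in B and 1.44 times in N. Krt10 overlaps the antisense gene Gm11940, and without strand information reads in the overlap cannot be told apart.

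Krt77, a type II keratin of suprabasal epidermis in the mouse, was at 35.8 in S, 107.8 in B and 136 in N. Krt78, a further type II keratin of stratified epithelia, was low, at 0.923 in S, 1.87 in B and 3.38 in N. Krt2, Krt9 and Krt76 stayed below 1 in all 3 libraries. Krt80, a type II keratin found widely in stratified epithelia, went the other way, at 54.1 in S, 22.0 in B and 23.5 in N. Its level in S was 2.30-fold that in N and 2.46-fold that in B, but with the values as deposited the log2 ratio of S against N was 0.92, just under the rule.

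The marker list of differentiating interfollicular keratinocytes holds Krt1, Krt10 and 5 other genes, of which 4 were measured, and those did not share 1 direction. Krtdap was lower in S against N, at 337 in S, 1134 in B and 2867 in N. The summed level of the list was 871 in S, 1634 in B and 3587 in N, and Krtdap carried most of it in B and N. Sbsn was higher in S against N, at 460 in S, 122 in B and 84.9 in N, and carried most of the summed level in S. Lor and Ivl did not pass the rule, and none of the 7 genes was at 0. The genes of late differentiation Lor (1.81 in S, 1.72 in B, 0.954 in N) and Flg (1.11 in S, 0.638 in B, 0.396 in N) were low in all 3 libraries. In pooled sorted cells, fewer cells of a type and less RNA per cell cannot be told apart, and the part of such cells in the levels of Krt1 and Krt10 was not tested.

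Of the keratins of the companion layer, the inner bulge and stressed epidermis, Krt6a and Krt75 were higher in both bulge populations, and Krt16 and Krt17 were not. Krt6a (ENSMUSG00000058354, chromosome 15, 101689932 to 101694307), a type II keratin of the inner bulge layer that is also induced in wounds, was at 115 in S, 72.3 in B and 0.549 in N. Relative to N it was 209-fold higher in S and 132-fold higher in B, with N resting on about 49 fragments. Between the bulge layers its log2 ratio was 0.66, under the rule. Krt75, the companion layer keratin, was at 5.25 in S, 1.49 in B and 0.0867 in N. It was 3.52-fold higher in S than in B (95% counting interval 2.94 to 4.25) and 60.6-fold higher in S than in N (33.7 to 123), where about 11 fragments were counted. On the same total over all genes no keratin was called higher in S than in B, Krt75 included. The marker list of the inner bulge holds Krt6a, Krt75 and 6 others, and of its 7 measured genes 4 were higher and 3 lower in S against N. Higher beside Krt6a and Krt75 were Fgf18, a growth factor gene that made up most of the summed level of the list in S, at 282 in S, 12.2 in B and 0.148 in N, and Bmp6, at 3.77 in S, 0.399 in B and 0.0435 in N. Lower were Krt17, Krt16 and Timp3, the last at 2.25 in S, 2.86 in B and 7.52 in N. The summed level was 422 in S, 132 in B and 50.7 in N. The part of such cells in the levels of Krt6a and Krt75 was not tested.

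Krt17, a type I keratin of the outer root sheath and of injured epidermis, was at 13.6 in S, 41.3 in B and 39.9 in N, so it was lower in S than in either of the others. Krt16, the type I keratin of hyperproliferative epidermis, was at 0.570 in S, 1.75 in B and 2.43 in N. Within a library there was thus 8.47 times as much Krt6a as Krt17 in S and 1.75 times in B, against 0.0138 times in N. Krt6b, the near copy of Krt6a, had 0.0322 in S, 0.130 in B and a listed 0 in N. Krt6a shares 31.6% of its 75-base windows with Krt6b and 50.7% with some other annotated transcript, so its level is less certain than those of the keratins without such copies. Krt16 shares 28.9% of its windows, most of them with Gm11597.

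Krt24 was highest in B and Krt79 highest in N. Krt24, a type I keratin, was at 4.88 in S, 46.4 in B and 0.261 in N, the only keratin past a level of 10 that was highest in B by more than the rule. It was 178-fold higher in B than in N (95% counting interval 113 to 293), 18.7-fold higher in S than in N (11.6 to 31.2) and 9.52-fold lower in S than in B. Krt79, a type II keratin of the follicle opening, was at 2.20 in S, 9.85 in B and 37.8 in N. It was 17.2-fold lower in S and 3.84-fold lower in B than in N. The other genes of the upper follicle list were Lrig1 at 8.98 in S, 10.8 in B and 34.7 in N, Lgr6 at 0.463 in S, 11.9 in B and 17.4 in N, Defb6 at 9.37 in S, 60.3 in B and 326 in N, Plet1 at 76.6 in S, 42.9 in B and 78.9 in N, and Gata6 at 3.78 in S, 0.965 in B and 2.45 in N. With Krt79, their summed level was 101 in S, 137 in B and 497 in N, and the part of such cells in the level of Krt79 was not tested. Krt19, a keratin also known from the bulge, had 0.0471 in S, 0.183 in B and a listed 0 in N.

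Hair keratins were nearly silent, with 1 exception. Of 9 type I hair keratins, Krt32, a keratin of the hair cuticle, was at 11.9 in S, 3.31 in B and 8.91 in N. It was 3.59-fold higher in S than in B (95% counting interval 3.03 to 4.27) and 2.69-fold lower in B than in N. The other 8 type I hair keratins and the 6 type II hair keratins analysed stayed below 1 everywhere. Krt32 overlaps the antisense gene Gm11571, which was at 0.179 in S, listed at 0 in B and at 0.153 in N. Of the 8 inner root sheath keratins none was measured, and the highest was Krt71 at 0.399 in B, listed at 0 in S and N.

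Keratins of simple epithelia and of Merkel cells were low in all 3 libraries. Krt8, Krt18 and Krt20, which mark Merkel cells, were at most 0.122, and the other 5 genes of the Merkel cell list at most 0.0967, with Atoh1 and Isl1 listed at 0 in every library. Krt7 was at 0.170 in S, 0.401 in B and 0.244 in N. Krt23, the 1 measured member of the group, was at 1.21 in S, 1.28 in B and 2.09 in N, and no ratio of it reached the rule. The mucosal and corneal keratins Krt4, Krt13 and Krt12 stayed at or below 0.206. Krt222, a type I keratin-like gene at the end of the chromosome 11 cluster, reached 1.61 in S, 0.859 in B and 0.0925 in N and missed the minimum mean.

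The 37 keratins below 1 together held 0.0202% of the keratin FPKM in S, 0.0725% in B and 0.0376% in N. Krt33b, Krt40, Krt73, Krt81, Krt87 and Krt88 were listed at 0 in all 3 libraries. A transcript of the median keratin length, 1940 bases, has a level of about 0.0536 in S, 0.0482 in B and 0.0397 in N when it is counted 3 times. A listed 0 can also be a failed estimate, since Rpl22, a ribosomal protein gene, is listed at 0 in B and was at 552 in S and 844 in N.

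**Figure D4:**
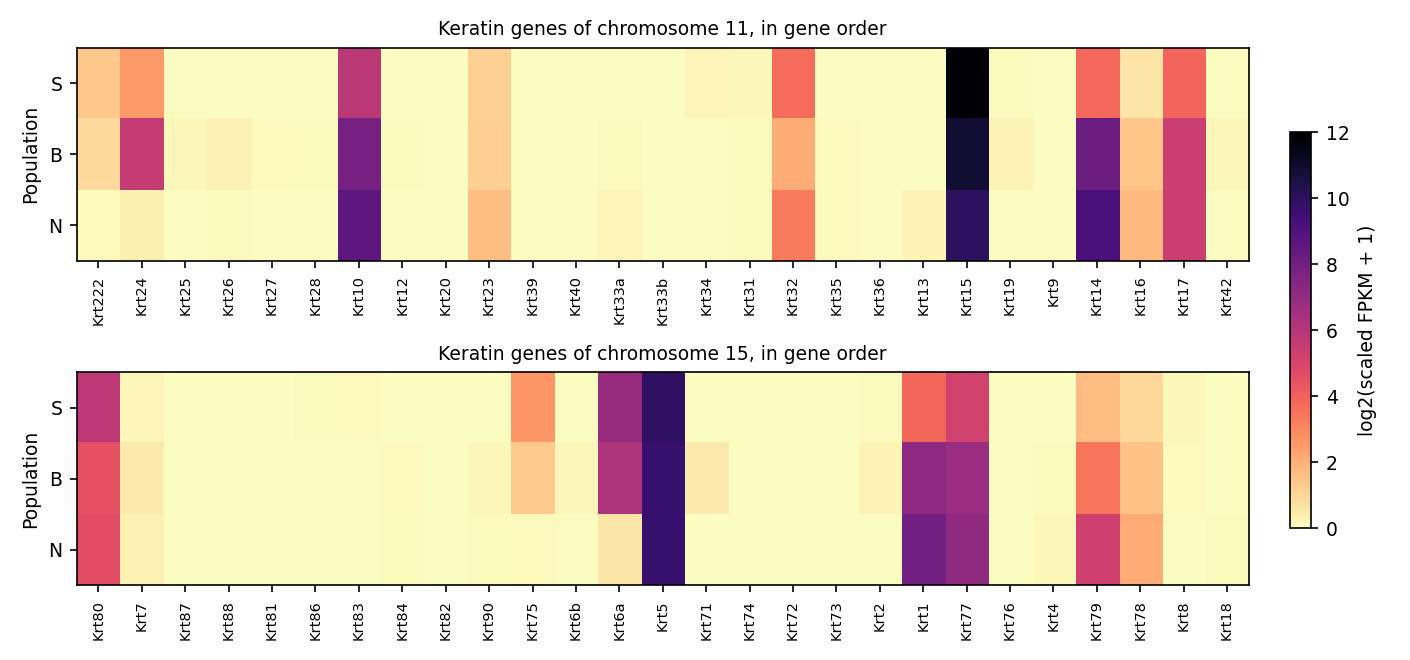
Log2 of scaled FPKM plus 1 of all 54 keratins in gene order on chromosome 11 (top) and chromosome 15 (bottom), with S, B and N as rows and 1 library each. The measured keratins stand among silent ones, and the inner root sheath keratins (Krt25 to Krt28 and Krt71 to Krt74) are pale in all 3 rows.

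The keratin clusters span 1037 kb of chromosome 11 (99232761 to 100269871) and 682 kb of chromosome 15 (101349571 to 102032026). Only 5 pairs of neighbours had both genes measured. In 3 of them, Krt1 with Krt77, Krt79 with Krt78 and Krt14 with Krt16, both neighbours had the order N over B over S. Krt6a and Krt5 lie 12.8 kb apart, and their log2 ratios of S against N were 6.23 and 0.23. Krt14 and Krt16 lie 38.5 kb apart and had log2 ratios of S against N of -5.42 and -1.13.

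Promoter sequences (250 bases before to 50 after the start of the gene, RefSeq, GRCm38.p6) were matched for 34 of the 54 keratins. The sequence TATAA, the core of the TATA box, began on the gene strand within the 50 bases before the start in 22 of the 34, or 64.7%. In Krt8, counted here, it began at the last base before the start. Among 27025 promoters of all genes the share was 5.55%. The promoters were picked differently: for keratins the promoter nearest the annotated gene start, within 100 bases, and for all genes the promoter of lowest coordinate. TATAA was found so placed in 3 of the 9 measured keratins with a promoter and in 19 of the 25 that were not measured. The measured keratins Krt1, Krt6a, Krt14, Krt15, Krt16, Krt17 and Krt80 had no matched promoter. Only the exact letters TATAA were sought, and close sequences such as ATAAAA, present in Krt5 and Krt75, were not counted. The split by measured state thus does not show which keratins lack a TATA box. These matches describe letters in a window and say nothing of use. Shown are 4 keratins that differ in pattern: Krt24, highest in B (chr11:99285213-99285512), Krt75, highest in S (chr15:101573855-101574154), Krt5, level (chr15:101712856-101713155), and Krt10, lowest in S (chr11:99389315-99389614), all on the minus strand. Capitals mark TATAA in the 50 bases before the start, which begins 28 bases before it in Krt24 and 26 in Krt10.
Krt24: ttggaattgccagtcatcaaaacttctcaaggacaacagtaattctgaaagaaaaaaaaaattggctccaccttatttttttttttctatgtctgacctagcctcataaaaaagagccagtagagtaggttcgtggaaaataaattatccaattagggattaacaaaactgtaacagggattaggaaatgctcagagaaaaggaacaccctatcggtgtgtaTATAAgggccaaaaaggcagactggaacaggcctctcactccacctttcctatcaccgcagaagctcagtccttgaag
Krt75: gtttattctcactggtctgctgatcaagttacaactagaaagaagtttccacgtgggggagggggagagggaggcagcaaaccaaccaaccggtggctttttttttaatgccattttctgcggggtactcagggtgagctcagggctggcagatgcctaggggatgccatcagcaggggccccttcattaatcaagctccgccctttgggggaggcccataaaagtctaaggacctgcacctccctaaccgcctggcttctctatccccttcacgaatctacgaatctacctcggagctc
Krt5: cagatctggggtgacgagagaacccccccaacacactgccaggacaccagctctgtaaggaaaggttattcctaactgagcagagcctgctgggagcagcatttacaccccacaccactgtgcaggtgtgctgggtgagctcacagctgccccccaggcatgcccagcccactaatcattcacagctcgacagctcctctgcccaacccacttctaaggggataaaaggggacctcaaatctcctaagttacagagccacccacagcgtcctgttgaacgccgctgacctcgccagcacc
Krt10: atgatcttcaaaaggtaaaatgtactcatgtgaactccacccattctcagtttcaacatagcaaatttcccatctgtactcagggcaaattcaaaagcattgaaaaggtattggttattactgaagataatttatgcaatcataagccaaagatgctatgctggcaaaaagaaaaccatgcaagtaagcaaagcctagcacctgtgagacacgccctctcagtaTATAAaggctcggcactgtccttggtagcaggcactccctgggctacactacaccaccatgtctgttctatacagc

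Other motifs were searched on both strands of the 300 bases. The AP-1 sequence TGANTCA was in 1 of the 34 keratin promoters (2.94%) and in 7.91% of all promoters, the AP-2 sequence GCCNNNGGC in 17.6% against 16.5%, the Sp1 sequence GGGCGG in 2.94% against 35.6%, and CACCC, a core bound by Kruppel-like factors, in 82.4% against 56.8%. The promoters were picked as for TATAA, and these shares are a description with no test.

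Keratin filaments end at desmosomes and hemidesmosomes, and 17 of 18 genes of that list were measured. In S against N none was higher and 5 lower, in B against N 1 was higher and 4 lower, and in S against B 1 was higher and 1 lower. Over all measured genes 9.58% were higher and 10.9% lower in S against N, 7.27% and 7.11% in B against N, and 3.9% and 5.93% in S against B. The medians of -0.32, -0.18 and -0.12 compare with 0.02, -0.04 and 0.06 over all measured genes. Dsg1a, a desmosomal cadherin of differentiating layers, was at 13.4 in S, 41.5 in B and 89.3 in N, in the order of Krt1 and Krt10. Dsg3, the cadherin of basal layers, was at 68.7 in S, 76.8 in B and 36.7 in N. Its log2 ratio in B against N was 1.045, barely past the rule. The plakophilin genes Pkp4 (3.16 in S, 5.45 in B, 17.2 in N) and Pkp1 (28.5 in S, 28.7 in B, 58.7 in N) were lower in both bulge populations. For Pkp1 the log2 ratios of -1.015 in S and -1.009 in B against N were barely past the rule. Other scalings were not tried for any gene of this list. Dsp, which encodes desmoplakin, the protein that binds keratin filaments to the desmosome, was at 161 in S, 143 in B and 113 in N and did not pass the rule.

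Of the transcription factor genes known to act on keratin genes, 17 of 18 were measured, with 5 higher and 5 lower in S against N, 5 higher and 2 lower in B against N, and 2 higher and 1 lower in S against B. Over all measured genes 20.5%, 14.4% and 9.83% passed the rule in either direction in these comparisons. Trp63, which encodes p63, a factor needed for Krt5 and Krt14 expression, was at 107 in S, 126 in B and 138 in N, with no ratio past the rule. Lhx2, a follicle stem cell factor, was at 56.1 in S, 35.0 in B and 0.910 in N. Sox9, needed for the bulge, was at 25.2 in S, 18.0 in B and 4.24 in N. Nfatc1, which holds bulge cells at rest, was at 27.7 in S, 10.5 in B and 3.95 in N. Gata3, an inner root sheath and epidermal factor, was at 8.52 in S, 13.2 in B and 43.6 in N. Hoxc13, a factor of hair keratin genes picked after its values were seen, was at 6.00 in S, 4.304 in B and 0.138 in N, beside hair keratins that were silent apart from Krt32.

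**Figure D5:**
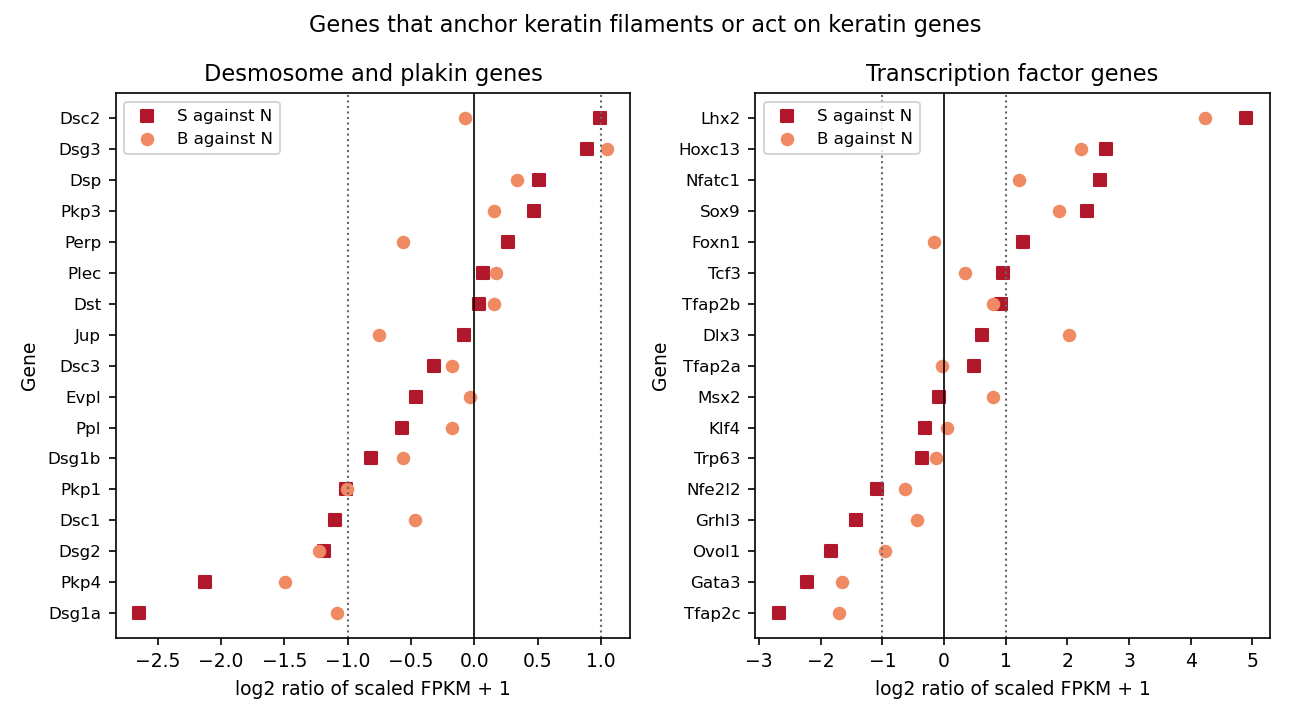
Log2 ratio of scaled FPKM plus 1 against N for the measured desmosome and plakin genes (left) and transcription factor genes (right), S as squares and B as circles, 1 library each, with dotted lines at 1 and -1. Dsg1a lies lowest among the anchoring genes, at -2.65 in S, and Lhx2 highest among the factors, at 4.90 in S.

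Of the genes that work with keratins late in differentiation, 7 of 14 were measured, with 3 higher and 1 lower in S against N, 2 higher and 1 lower in B against N, and 1 higher and 1 lower in S against B, where 20.5%, 14.4% and 9.83% of all measured genes passed in either direction. Calml3, a calmodulin-like gene, was at 157 in S, 103 in B and 7.38 in N, and Tgm5, a transglutaminase, at 91.3 in S, 124 in B and 2.58 in N. Of the other intermediate filament genes 3 of 15 were measured, and none passed the rule in any comparison. Lmna, the lamin A gene, was at 27.8 in S, 18.2 in B and 22.3 in N, and Vim, the mesenchymal filament gene, at 1.498 in S, 1.74 in B and 0.494 in N. Of 10 chaperone, kinase and turnover genes 9 were measured, and Hspb1, a small heat shock protein gene, passed the rule in S against N, at 279 in S, 179 in B and 137 in N. Its log2 ratio in S against N was 1.014, barely past the rule, and other scalings were not tried for it.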

How the data were processed

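FPKM values per Ensembl gene were deposited by the authors in 1 table per population. The headers of N and S name the unit, and that of B names the population, so its unit was taken from the values. The submitters' processing notes list TopHat2 2.0.12, Cufflinks 2.1.1, DESeq2 and mm10 without saying what each did. The gene annotation is not given in the sources read. Per the labels' protocols, total RNA was amplified from poly(T) and random primers and sequenced with paired reads of 75 bases, which retains RNA without poly(A), and epidermis was separated with thermolysin.

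Rows of 1 symbol were summed (49195 of 49452 rows had a symbol; 54 keratins, 1 row each). The libraries were brought to 1 scale by median-of-ratios factors from 18618 genes (0.923 for S, 0.981 for B and 1.10 for N). A mean of 1 or more made a gene measured (11598), and the ratio is log2 of value plus 1, which understates differences of low genes. Depth came from steps of single-exon genes of at least 3000 bases, as the value that put most low values near whole fragments. At that depth 95.7% to 97.9% of the values worth fewer than 10 fragments were within 0.1 of whole fragments. The share by chance is 20% for a depth fixed in advance. Because the depth was chosen to make the share large, the share is not an independent check. Fragments per keratin were estimated from the longest coding transcript in GENCODE and are approximate to a few percent. Counting intervals are 95% and leave out amplification and differences between mice. In simulated libraries with 200 genes raised, the size rule recovered 96.5% at 3-fold and 13.5% at 2-fold in B against N, with 0 other genes called; these libraries held counting noise only, with no spread between mice or samples, so this does not show how often the rule errs in real samples. Keratins reaching 10 are described in full, as are up to 4 members of each other list with the largest ratios and a mean of at least 5. The members and lists were chosen with earlier results of these data known. Alternatives were other scalings, pseudocounts and filters. Python 3.11.15, pandas 2.3.3, NumPy 2.4.6 and SciPy 1.17.1 were used.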

Additional observations from a re-analysis of the deposited data

Results flagged for a closer look

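For 3 keratins S and B lay on opposite sides of N, with 1 of the 2 log2 ratios at least 1 in size, and the difference was not tested. The log2 ratio of Krt17 was -1.49 in S against N and 0.046 in B against N. That of Krt32 was 0.38 in S against N and -1.20 in B against N. That of Krt80 was 1.17 in S against N and -0.092 in B against N. The smaller ratio of each changed sign with the scaling. In B against N, Krt17 was at -0.12 as deposited and Krt80 at 0.050 on the same total over protein-coding genes. In S against N, Krt32 was at -1.31 on the same total over all genes. Both comparisons share the N library.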

How the results depend on the processing

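With 1 library per group no replicate could be left out, and no paired analysis was possible because each group has 1 sample. Among 288 log2 ratios of the 12 keratins that reach 10 under the alternatives, 4 changed sign after being called, all on the same total over all genes. Of 192 called values 10 fell under the rule. Leaving out the filter or raising it to a mean of 5 cannot change a single ratio, so those values in both counts repeat the reported ones. On the same total over all genes, of which mt-Tl1 makes up 71.0% in S and 0 in B and N, the median of all genes is -1.41 in S against N and -1.53 in S against B. There Krt15 was at -0.047 and Krt80 at -0.67 in S against N, and Krt32 at -0.19 and Krt80 at -0.75 in S against B. The keratins then numbered 3 higher in S against N, and 0 higher and 13 lower in S against B. Krt15 in B against N gained the call on the totals over coding genes (1.02) and over all genes (1.06). Krt1 in B against N gained it as deposited (-1.04). Calls lost under other settings were Krt14 in B against N (-0.90 on the total over all genes, -0.94 over coding genes and -0.99 with factors from genes of mean at least 5), Krt80 in S against N (0.92 as deposited), and with a pseudocount of 5 Krt32 in B against N (-0.74) and Krt24 in S against N (0.91).

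The balance of type I over type II was 3.49 in S and 2.25 in B without keratins that share reads, and 2.33 in S, 1.57 in B and 1.19 in N in estimated fragments, so the order of the libraries was the same. The keratin share of coding FPKM was 2.35% in S and 1.79% in B without keratins that share reads, 3.05% in S, 2.36% in B and 2.04% in N without ribosomal protein genes, and 1.76% in S, 1.43% in B and 1.29% in N in fragments. Without the filter the keratin medians were 0.00 in S against N, 0.02 in B against N and -0.05 in S against B. As deposited, all genes split into 719 higher and 1101 lower in B against N (843 and 825 as reported) and 859 and 1682 in S against N (1111 and 1267). With a pseudocount of 5 all-gene counts were 309 and 350 in B against N, 449 and 558 in S against N, and 191 and 277 in S against B (452 and 688 as reported). With a mean of at least 5 they were 374 and 420, 547 and 614, and 239 and 342. On the total over all genes they were 1277 and 816, 224 and 8701, and 82 and 10245. With a pseudocount of 0.1, 1079 genes were lower in S against B.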

Other observations

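Beside the keratins, Hoxc13 and Foxn1, factor genes known from hair keratin expression, differed in their patterns. Foxn1, picked after its values were seen, was at 3.74 in S, 0.753 in B and 0.962 in N, the order S over N over B that Krt32 also had. Lef1 and Dlx3, known from growing hair, were highest in B, with Lef1 at 0.230 in S, 2.097 in B and 0.0737 in N, and Dlx3 at 0.639 in S, 3.36 in B and 0.0701 in N. Of the hair shaft and inner root sheath list, 3 of 10 genes were measured (Msx2, Hoxc13 and Dlx3), and its summed level was 9.14 in S, 14.9 in B and 2.75 in N.

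The predicted microRNA gene Gm44323 lies within Krt5 on the opposite strand, over 129 bases, and was listed at 1423 in S, 1316 in B and 985 in N. Reads in that stretch cannot be assigned to a strand with these files, and their part in the level of Krt5 was not tested.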
